A study of Drosophila melanogaster with 10 samples.

Results

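The genes that build N-glycans and glycosylphosphatidylinositol (GPI) anchors were followed in Drosophila melanogaster S2 cells in which JIL-1, a histone kinase of chromatin, was targeted by RNA interference (RNAi). Members were genes whose current symbol starts with Alg plus a digit or with PIG-, together with gny, xit, wol, the Dpm genes, Stt3A, Stt3B (also called OstStt3), Ost48, OstDelta, Mgat1 and Mgat2. Each gene was read from its brightest probe set by mean over the 10 arrays, and that mean had to exceed 4 on the log2 scale. Of 43 genes with such a symbol, 33 met this rule, out of 6721 genes and unnamed probe sets tested in all. The N-glycan branch held 16 of them, the GPI branch held 16, and Dpm1 serves both branches. For gny and PIG-Wb the mean was 4 or less. Dpm2, Dpm3, xit, Ost48, PIG-M, PIG-P, PIG-V and PIG-Z had no probe set named for them alone among those used and were not analysed here.

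S2 cells are a line from fly embryos with features of macrophage-like blood cells. The 5 JIL-1 RNAi samples comprised 2 of batch A, which received a double-stranded RNA (dsRNA) labelled 5prime, and 3 of batch B, which received one labelled 3prime. The 5 control RNAi samples comprised 3 of batch A with GST dsRNA and 2 of batch B with dsRNA of EGFP, which is foreign to the fly. All cells were grown with 10% FCS, received 10 µg of dsRNA for 1 h without serum, were split on day 3 and were harvested on day 7. Each batch had its own dsRNAs, so batch and dsRNA cannot be told apart. The series calls the samples biological replicates of this 1 cell line. The p-values weigh a change against the spread that remains between them once group and batch are taken into account.

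The median of the tested values lay between 9.22 and 9.42 on the 10 arrays. Precision is limited by how many arrays there were. JIL-1 itself (arm 3L) gave 4.35 and 4.35 with the 5prime dsRNA, against 5.79, 5.95 and 5.66 with GST dsRNA. It gave 5.66, 5.78 and 5.84 with the 3prime dsRNA, against 7.53 and 7.34 with EGFP dsRNA, and it fell by 1.56 (SE 0.08, adjusted p = 5.32e-07). All 13 plasmatocyte markers were among the tested genes, and 6 of them fell, where 14.9% of all tested genes fell. NimC1 (-2.14), Sr-CI (-1.30), Ppn (-0.90) and drpr (-0.75) were among them. None rose, but Pxn (0.42, adjusted p = 0.0543 by limma), srp (0.09) and vkg (0.08) had positive changes. Pxn changed by -0.04 within batch A and 0.88 within batch B, a difference that passed (adjusted p = 0.00177 by limma). Both fat body markers on the array lay under 4 in every sample, as did 2 of 3 germ line markers. The summed level of the germ line markers was 4.37 to 5.71 in JIL-1 RNAi samples, against 3.79 to 3.84 in controls (log2 of the sum of linear values). None of these 3 markers had a mean above 4, so 0 were tested, and the sums rest on dim values. That of the plasmatocyte markers was 16.91 to 16.97 in JIL-1 RNAi samples, against 16.91 to 17.08 in controls. The summed level of the neuron and glia markers ran from 11.13 to 11.58 in JIL-1 RNAi samples, against 10.64 to 11.12 in controls. Of its 3 tested genes 1 rose (moody, 0.52), while brp (-0.17) and elav (-0.28) had negative changes that did not pass. For crystal cells and lamellocytes 2 of 2 and 1 of 2 tested markers fell, and the 1 tested muscle marker, bt, did not pass. All these marker counts stand beside 20.8% of all tested genes that rose and 14.9% that fell. The part of these markers in the changes below was not tested. In cultures measured whole, fewer cells of a kind and less RNA per cell cannot be told apart.

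N-glycans are built as a lipid-linked precursor on dolichol, first on the cytosolic and then on the luminal face of the endoplasmic reticulum (ER). The oligosaccharyltransferase moves the finished glycan onto asparagines of new proteins, and Golgi enzymes remodel it. GPI anchors start on the same membrane from phosphatidylinositol, which receives glucosamine, an acyl chain, mannoses and ethanolamine phosphates before a transamidase attaches it to the end of a protein. Both routes take mannose from dolichol phosphate mannose. In blood cells and their lines, secreted matrix proteins and surface receptors carry N-glycans.

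The members moved mostly upward after JIL-1 RNAi, by small amounts. Changes are log2 differences, JIL-1 RNAi minus control RNAi, with the standard error (SE) from limma with a term for batch. Limma's p-values were adjusted by Benjamini-Hochberg over all 6721, and 0.05 is the threshold. Of the 33 members 16 rose (48.5%) and 1 fell (3.03%), where 20.8% of all tested genes rose and 14.9% fell (35.7% in either direction). The median change of the members was 0.17, against 0.047 over all tested. Of the 16 rises, 11 were under 0.3, and 3 changes reached 1.5-fold (Alg13, PIG-Wa and PIG-N). Of the 33 members, 15 had all JIL-1 RNAi values above every control of the same batch in both batches, and this was so for 18.2% of all tested genes.

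The 3' minus 5' signal of the GAPDH control probe sets, a sign of RNA quality, moved with the groups. It ran from 0.075 to 0.33 in JIL-1 RNAi samples, against 0.65 to 1.18 in controls, without overlap. An older pair of GAPDH probe sets on the same arrays ran the other way in batch A, with 0.59 and 0.74 in JIL-1 RNAi samples against 0.55, 0.56 and 0.38 in controls. In batch B that pair overlapped, with 1.33, 1.43 and 1.27 in JIL-1 RNAi samples against 1.23 and 1.54 in controls. The same signal of Act5C overlapped in batch A, with 0.84 and 0.77 in JIL-1 RNAi samples against 0.81, 0.96 and 0.74 in controls. In batch B it was 2.44, 2.33 and 2.28 in JIL-1 RNAi samples against 2.77 and 3.10 in controls, without overlap. With the first GAPDH signal as a covariate only Alg13 among the members stayed past the threshold (1.55, SE 0.18, adjusted p = 0.00621). Alg14 was then at 1.00 with a wider SE of 0.34 (adjusted p = 0.142). The median change was 0.27 in the GPI branch, against 0.22 without the covariate, and 0.079 in the N-glycan branch, against 0.15 without it. Over all tested genes that fit gave 93 rises and 100 falls. The changes of Alg11, wol and PIG-F had the opposite sign in it, as did those of ergic53, Der-2, Nrx-IV and Sec61beta from the related lists. With the Act5C signal as a covariate 11 members rose, Alg13 was at 0.94 (SE 0.10, adjusted p = 0.000317) and Alg14 at 0.63 (SE 0.11, adjusted p = 0.00376). Without a term for batch 3 members rose.

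**Figure D1:**
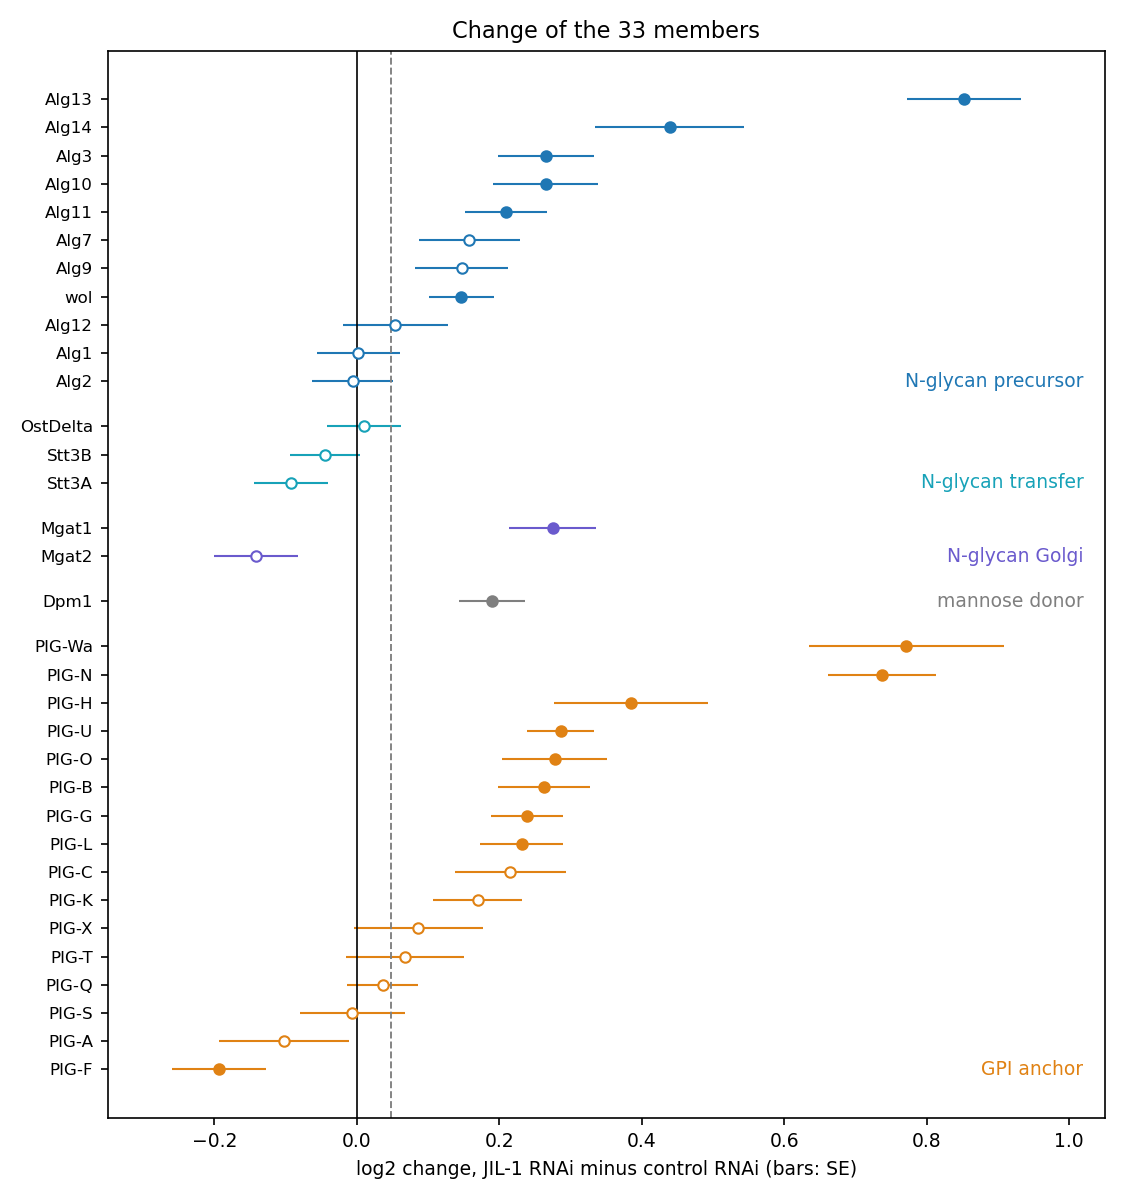
Log2 change of each of the 33 members (x axis, JIL-1 RNAi minus control RNAi, bars are SE), grouped by step of the pathway. Filled points passed the threshold, open points did not, and the dashed line marks the median over all tested genes (0.047). Alg13, PIG-Wa and PIG-N lie apart from the rest, and PIG-F is the only filled point below 0.

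Alg13 and Alg14 together form the enzyme that adds the second N-acetylglucosamine of the precursor. In yeast and human, Alg14 is the membrane anchor and Alg13 the catalytic partner. Both rose. Alg13 (arm 3R) gave 7.99 and 7.78 with the 5prime dsRNA, against 6.90, 6.80 and 6.94 with GST dsRNA. It gave 7.58, 7.70 and 7.82 with the 3prime dsRNA, against 6.97 and 7.02 with EGFP dsRNA. Every JIL-1 RNAi value of Alg13 lay above every control value, whichever the batch. The change was 0.85 (SE 0.08, adjusted p = 3.59e-05), a level 1.81-fold higher and the largest rise among the members.

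Alg14 (X chromosome) gave 8.67 and 8.41 with the 5prime dsRNA, against 8.02, 7.76 and 7.84 with GST dsRNA. It gave 8.12, 8.02 and 7.85 with the 3prime dsRNA, against 7.75 and 7.82 with EGFP dsRNA. The groups did not overlap within either batch, but in batch B the lowest JIL-1 RNAi value lay close to the higher control. Alg14 rose by 0.44 (SE 0.10, adjusted p = 0.00958), a level 1.36-fold higher. Within batch A its change was 0.67 (SE 0.11), and within batch B 0.21 (SE 0.11, adjusted p = 0.233). The difference between these changes, -0.46, did not pass (adjusted p = 0.227).

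The measured shifts of the pair were not equal. Alg13 minus Alg14, taken within each array, shifted by 0.41 on the log2 scale between JIL-1 RNAi and control RNAi samples. An exact permutation test over the 100 regroupings that keep each batch's group sizes gave a two-sided p of 0.02, with 0.01 the smallest they can give. The difference was -0.68 and -0.63 with the 5prime dsRNA, against -1.11, -0.96 and -0.89 with GST dsRNA. It was -0.55, -0.32 and -0.03 with the 3prime dsRNA, against -0.78 and -0.80 with EGFP dsRNA. These values carry the probes' own brightness, so only their shift between groups can be read. Different probe sets may also report a change to different extents. An unequal rise of the RNAs therefore cannot be told apart from unequal probe sets, and the p was not adjusted.

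**Figure D2:**
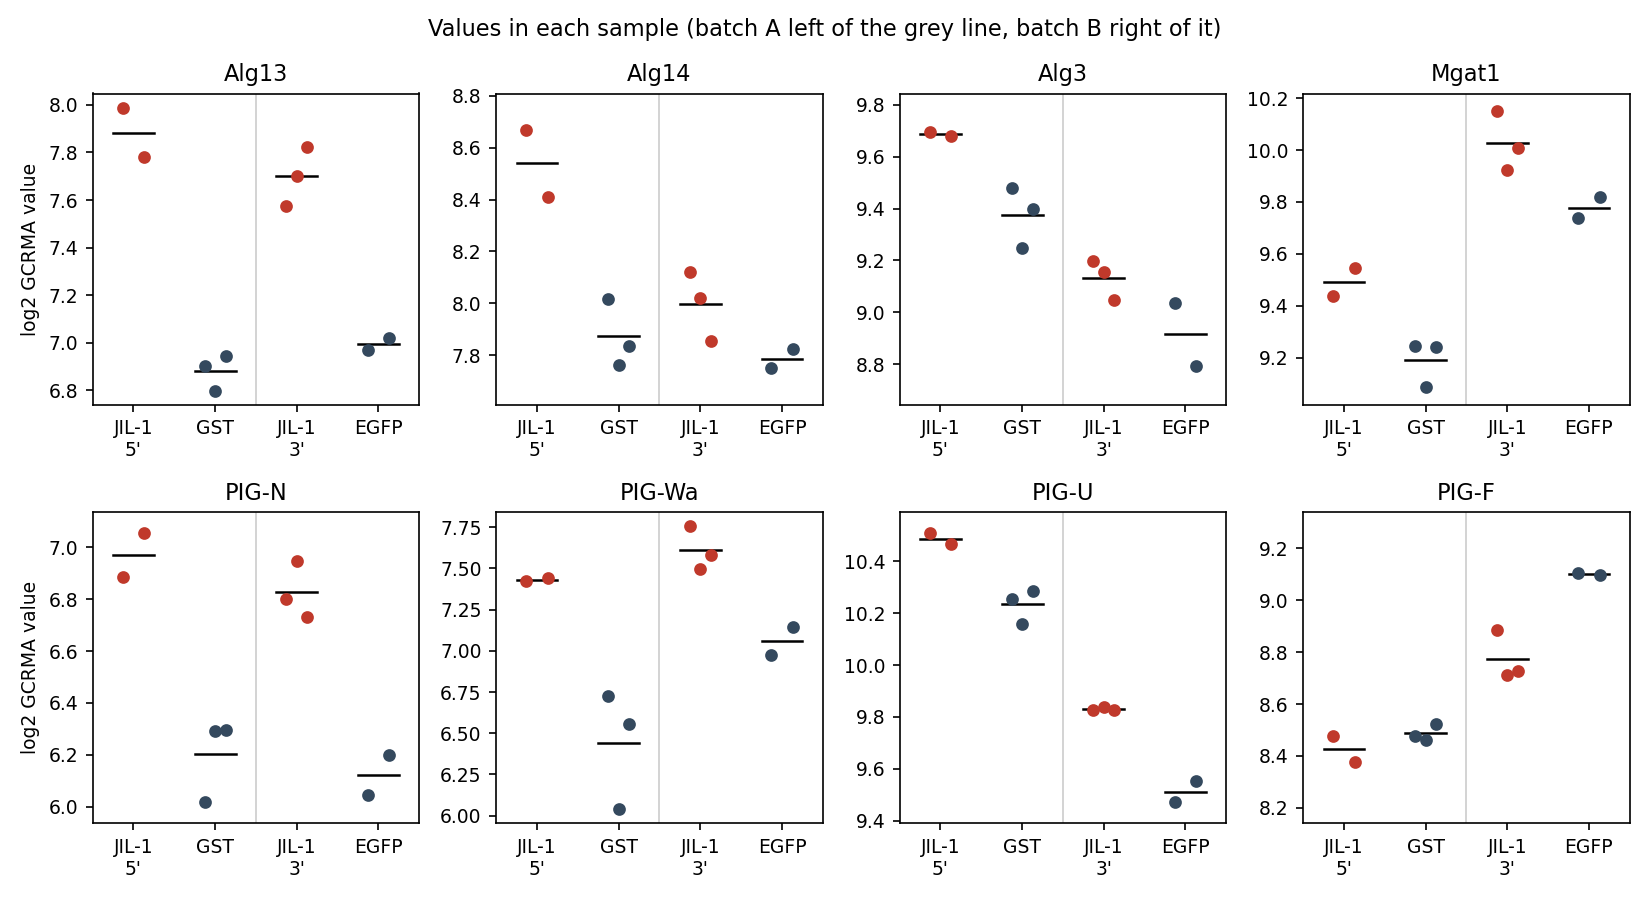
Log2 values (y axis) of 8 members in each sample, with JIL-1 RNAi in red and control RNAi in dark blue, batch A left and batch B right of the grey line, and bars at the mean of each batch and group. Alg13, PIG-N and PIG-Wa separate the groups over all 10 arrays. The controls of PIG-Wa, Alg3, PIG-U, Mgat1 and PIG-F also differ between the batches. Each panel has its own y range.

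On the cytosolic face 3 of the 6 measured enzymes of the precursor rose, with Alg11 beside the pair, where 20.8% of all tested genes rose. Alg11, which adds the last mannoses on that face, gave 11.55 and 11.58 with the 5prime dsRNA, against 11.50, 11.33 and 11.40 with GST dsRNA. It gave 11.37, 11.25 and 11.22 with the 3prime dsRNA, against 11.08 and 10.95 with EGFP dsRNA. The groups stood apart within each batch, and Alg11 rose by 0.21 (SE 0.06, adjusted p = 0.0183). Without control replicate 5 its adjusted p was 0.0636.

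Alg7, which starts the precursor, changed by 0.16 (SE 0.07, adjusted p = 0.108). Its groups overlapped within both batches. Alg1 and Alg2, the mannosyltransferases that follow the Alg13 and Alg14 step, changed by 0.002 (95% interval -0.13 to 0.13) and by -0.006 (-0.13 to 0.12). Their intervals leave out the size of the changes in Alg13 and Alg14.

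On the luminal face Alg3, Alg9 and Alg12 add further mannoses and Alg10 the last glucose. Of these 4, Alg3 and Alg10 rose, beside 20.8% of all tested genes. Alg3 (arm 2R) gave 9.69 and 9.68 with the 5prime dsRNA, against 9.48, 9.25 and 9.40 with GST dsRNA. It gave 9.20, 9.15 and 9.05 with the 3prime dsRNA, against 9.04 and 8.79 with EGFP dsRNA, and it rose by 0.27 (SE 0.07, adjusted p = 0.0128). All JIL-1 RNAi values lay above the controls of their batch, but the control levels of the batches differed by -0.46 (B minus A), more than the RNAi change.

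Alg10 (arm 3L) gave 9.82 and 9.63 with the 5prime dsRNA, against 9.46, 9.33 and 9.35 with GST dsRNA. It gave 9.55, 9.33 and 9.26 with the 3prime dsRNA, against 9.25 and 9.15 with EGFP dsRNA, and it rose by 0.26 (SE 0.07, adjusted p = 0.019). Again the groups stood apart in each batch, though without JIL-1 RNAi replicate 1 the adjusted p was 0.0617. Alg9 changed by 0.15 (adjusted p = 0.105) and Alg12 by 0.05 (adjusted p = 0.594).

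The donors of dolichol-linked sugars rose slightly. Dpm1, the catalytic subunit of dolichol phosphate mannose synthase, gave 11.30 and 11.22 with the 5prime dsRNA, against 11.11, 11.08 and 11.02 with GST dsRNA. It gave 10.74, 10.82 and 10.70 with the 3prime dsRNA, against 10.58 and 10.55 with EGFP dsRNA. The groups were apart in each batch, the change was alike in both (0.19 and 0.19), and Dpm1 rose by 0.19 (SE 0.05, adjusted p = 0.0111). The gene wol, the fly Alg5 that makes dolichol phosphate glucose, gave 11.44 and 11.51 with the 5prime dsRNA, against 11.44, 11.32 and 11.34 with GST dsRNA. It gave 10.94, 10.91 and 10.92 with the 3prime dsRNA, against 10.74 and 10.74 with EGFP dsRNA, and rose by 0.15 (SE 0.05, adjusted p = 0.0318). In batch A its groups nearly touched, and its call was lost without any 1 of 7 samples (adjusted p up to 0.0854).

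None of the 3 measured subunits of the oligosaccharyltransferase passed the threshold, where 35.7% of all tested genes passed. Stt3A and Stt3B, its alternative catalytic subunits, changed by -0.09 (95% interval -0.21 to 0.02) and -0.05 (-0.15 to 0.06). OstDelta, the homolog of ribophorin II, changed by 0.01 (-0.11 to 0.12). These 3 intervals leave out a rise of the size of Alg14's. Dad1 and Ostgamma, other subunits of the enzyme, changed by -0.10 and 0.07 and did not pass either.

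In the Golgi, Mgat1 opens the path to hybrid, complex and paucimannose glycans, and Mgat2 acts after it. Mgat1 (arm 2R) gave 9.44 and 9.54 with the 5prime dsRNA, against 9.24, 9.09 and 9.24 with GST dsRNA. It gave 10.15, 9.92 and 10.01 with the 3prime dsRNA, against 9.74 and 9.82 with EGFP dsRNA. The groups were apart in both batches, and Mgat1 rose by 0.28 (SE 0.06, adjusted p = 0.0066). Mgat2 changed by -0.14 (SE 0.06, adjusted p = 0.0873), and with arrays set to a common median its adjusted p was 0.041.

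Of the 16 GPI members 8 rose, 1 fell and 7 did not pass, with a median of 0.22. Over all tested genes 20.8% rose and 14.9% fell. The first steps, in which a complex with PIG-A, PIG-C, PIG-H and PIG-Q transfers N-acetylglucosamine, had 1 rise among 4 members. PIG-H gave 8.59 and 8.48 with the 5prime dsRNA, against 8.15, 7.75 and 8.24 with GST dsRNA. It gave 7.99, 7.76 and 7.82 with the 3prime dsRNA, against 7.73 and 7.42 with EGFP dsRNA, and rose by 0.38 (SE 0.11, adjusted p = 0.0202). The groups were apart within each batch, though in batch B by little, and the call was lost without any 1 of 3 samples (adjusted p up to 0.0643). PIG-A, the catalytic subunit, changed by -0.10, PIG-C by 0.22 (adjusted p = 0.0543) and PIG-Q by 0.04.

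Both enzymes that follow rose, where 20.8% of all tested genes did. PIG-L, the de-N-acetylase, gave 9.82 and 9.99 with the 5prime dsRNA, against 9.67, 9.72 and 9.85 with GST dsRNA. It gave 9.73, 9.77 and 9.77 with the 3prime dsRNA, against 9.45 and 9.45 with EGFP dsRNA, and rose by 0.23 (SE 0.06, adjusted p = 0.0122). Its groups overlapped in batch A and were clearly apart in batch B.

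PIG-Wa, one of the fly genes named after the inositol acyltransferase PIG-W, gave 7.42 and 7.44 with the 5prime dsRNA, against 6.73, 6.04 and 6.56 with GST dsRNA. It gave 7.76, 7.49 and 7.58 with the 3prime dsRNA, against 6.97 and 7.14 with EGFP dsRNA. All 5 JIL-1 RNAi values lay above all 5 control values, and the controls with GST dsRNA were the most spread. PIG-Wa rose by 0.77 (SE 0.14, adjusted p = 0.00197), a level 1.71-fold higher. Its change was 0.99 within batch A and 0.55 within batch B, and the control levels of the batches differed by 0.62 (B minus A). Its paralog PIG-Wb lay at the lower end of the scale in every sample.

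PIG-B, a mannosyltransferase of the anchor, gave 10.59 and 10.36 with the 5prime dsRNA, against 10.25, 10.35 and 10.17 with GST dsRNA. It gave 11.23, 11.17 and 11.06 with the 3prime dsRNA, against 10.81 and 10.89 with EGFP dsRNA, and rose by 0.26 (SE 0.06, adjusted p = 0.0112). Its groups barely cleared each other in batch A. PIG-X, partner of the mannosyltransferase PIG-M, changed by 0.09 (adjusted p = 0.481), and its second probe set by 0.29 (adjusted p = 0.139 with every probe set as a row).

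Of the 4 members of the ethanolamine phosphate steps 3 rose and 1 fell, where 35.7% of all tested genes passed in either direction. For PIG-O and PIG-F the call was lost when certain single samples were left out, as given below. PIG-N, which modifies the first mannose, gave 6.89 and 7.05 with the 5prime dsRNA, against 6.02, 6.29 and 6.30 with GST dsRNA. It gave 6.80, 6.95 and 6.73 with the 3prime dsRNA, against 6.04 and 6.20 with EGFP dsRNA. The groups stood far apart and the batches were alike (0.77 within batch A, 0.71 within batch B). PIG-N rose by 0.74 (SE 0.08, adjusted p = 6.92e-05), a level 1.67-fold higher, and it had the smallest p of the GPI branch.

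PIG-G, of the enzyme for the second mannose, gave 9.42 and 9.40 with the 5prime dsRNA, against 9.20, 9.09 and 9.15 with GST dsRNA. It gave 9.25, 9.40 and 9.37 with the 3prime dsRNA, against 9.08 and 9.17 with EGFP dsRNA, and rose by 0.24 (SE 0.05, adjusted p = 0.00522). All 5 JIL-1 RNAi values exceeded all 5 controls. PIG-O, of the enzyme for the third mannose, rose by 0.28 (SE 0.07, adjusted p = 0.0159), with values of 7.91 to 8.10 in JIL-1 RNAi samples against 7.53 to 7.90 in controls. Without control replicate 4 its adjusted p was 0.0526.

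PIG-F, known in mammals as the partner of both PIG-O and PIG-G, was the 1 member that fell. It gave 8.48 and 8.38 with the 5prime dsRNA, against 8.48, 8.46 and 8.52 with GST dsRNA. It gave 8.89, 8.71 and 8.73 with the 3prime dsRNA, against 9.10 and 9.10 with EGFP dsRNA. The groups were apart in batch B and overlapped in batch A, with changes of -0.33 and -0.06. Over both batches PIG-F fell by 0.19 (SE 0.07, adjusted p = 0.0436), and the call was lost without any 1 of 7 samples (adjusted p up to 0.13).

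Of 4 transamidase subunits, PIG-U rose and the others did not pass, beside 20.8% of all tested genes that rose. PIG-U gave 10.51 and 10.47 with the 5prime dsRNA, against 10.26, 10.16 and 10.29 with GST dsRNA. It gave 9.83, 9.84 and 9.83 with the 3prime dsRNA, against 9.47 and 9.55 with EGFP dsRNA, and rose by 0.29 (SE 0.05, adjusted p = 0.00121). The groups were well apart within each batch, while the control levels of the batches differed by -0.72. PIG-K, the catalytic subunit, changed by 0.17 (adjusted p = 0.0568), PIG-T by 0.07 and PIG-S by -0.01. A second probe set of PIG-S disagreed with the first, with a rise of 0.25 (adjusted p = 0.0439 with every probe set as a row).

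Set side by side, the branches gave similar counts. In the N-glycan branch 7 of 16 members rose and 0 fell, with a median of 0.15 (4 had a negative change). In the GPI branch 8 of 16 rose and 1 fell, with a median of 0.22 (3 had a negative change). Both stand beside 20.8% of all tested genes that rose and 14.9% that fell. At an unadjusted p under 0.05 in limma the N-glycan branch had 9 positive and 1 negative change, and the GPI branch 10 and 1. The medians differed by -0.077 (N-glycan minus GPI), which was not tested. Within samples, the N-glycan median lay 0.07 to 0.23 above the control mean of the batch in JIL-1 RNAi samples and -0.08 to 0.05 from it in controls. The GPI median lay 0.14 to 0.28 above it in JIL-1 RNAi samples and -0.07 to 0.08 from it in controls. Over all tested genes these medians ran from -0.01 to 0.07 in JIL-1 RNAi samples and from -0.04 to 0.05 in controls. In JIL-1 RNAi replicate 1 (batch A) the N-glycan median, 0.0724, did not exceed that over all tested genes, 0.0729.

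**Figure D3:**
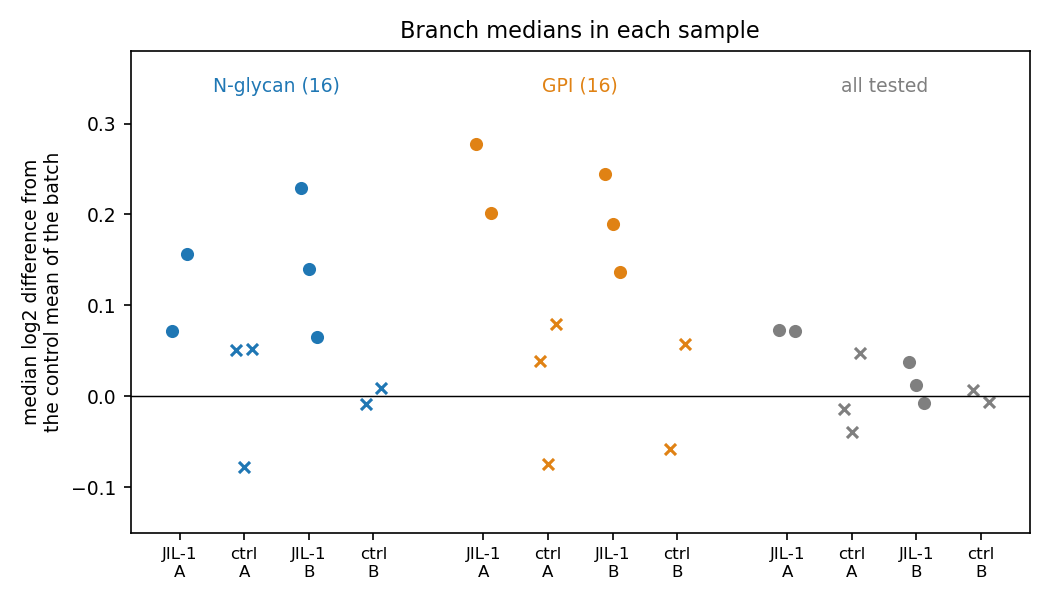
Median over each branch's 16 members, and over all tested genes, of the log2 difference from the control mean of the same batch (y axis) in each sample (JIL-1 RNAi as dots, control RNAi as crosses). The GPI dots lie between 0.14 and 0.28 and the N-glycan dots between 0.07 and 0.23, above the crosses of their own batch.

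No member changed differently between the batches by limma's test of the difference (0 of 33 past the threshold, where 1.38% of all tested genes were, and 2 members at an unadjusted p under 0.05). The change had the same sign in both batches in 25 of 33 members, against 74.9% of all tested genes. Within batch A 10 members rose and none fell, where 1162 of all 6721 tested genes rose and 732 fell (28.2% in either direction). Within batch B 6 rose and PIG-F fell, where 500 of all 6721 tested genes rose and 684 fell (17.6% in either direction). The batches themselves differed more than the RNAi groups in many members. The control samples of batch B and batch A differed in 15 of 33 members (62.4% of all tested genes), and in 21 members that gap was larger than the RNAi change. Alg7 was the widest, at -1.02 (SE 0.10).

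**Figure D4:**
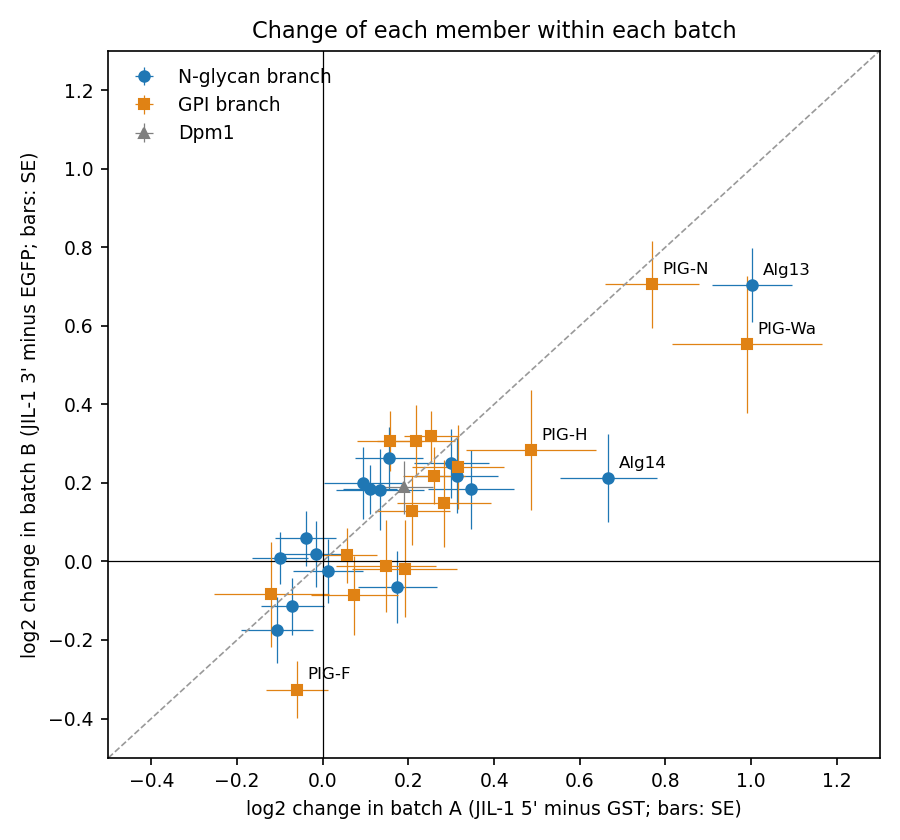
Log2 change of each member in batch B (y axis) against batch A (x axis), with SE bars and a dashed line of equal change. Alg13, PIG-N and PIG-Wa lie high in both batches, Alg14 is higher in batch A than in batch B, and PIG-F lies below 0 mainly in batch B.

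The members lie on all large chromosome arms. Of 5 X-linked members only Alg14 rose (20.0%), where 13.8% of tested X-linked genes rose. Of 8 on arm 2R 5 rose (21.7% of tested genes on that arm), of 5 on 2L 4 rose (22.8%), of 6 on 3L 3 rose (23.4%) and of 9 on 3R 3 rose (24.4%). In Release 6, 19 of the 33 overlap another protein-coding gene. Vha100-1, which overlaps Alg13, changed by -0.06 (adjusted p = 0.301), and mh, which overlaps Alg14, by -0.04 (adjusted p = 0.848). Of the other tested genes that overlap a risen member, mRpL51 over PIG-U (0.41, adjusted p = 0.00835) and wls over Alg10 (0.27, adjusted p = 0.00618) rose, and Ttd14 over PIG-O fell (-0.36, adjusted p = 0.0238). The changes of magu over PIG-N (-0.10), MED1 over Alg11 (0.11), CG5504 over Alg3 (-0.06) and Orc1 over PIG-G (-0.26) did not pass. Of 24 tested genes that overlap or adjoin a risen member, 5 rose, 2 fell and 17 did not pass, where 20.8% of all tested genes rose and 14.9% fell.

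Other genes of these routes were read from lists made by function. Their counts stand beside 20.8% of all tested genes that rose and 14.9% that fell. Of 14 measured genes for trimming, folding control and Golgi processing of N-glycans, 7 rose and none fell (median 0.17), with 3 to 8 rises when 1 sample was left out. They included ergic53, a cargo lectin (0.27, SE 0.05, adjusted p = 0.00226), Mgat4a, a Golgi GlcNAc transferase (0.43, SE 0.09, adjusted p = 0.00398), alpha-Man-IIa, the Golgi mannosidase that acts after Mgat1 (0.28, SE 0.06, adjusted p = 0.00434), and Uggt, the folding sensor (0.22, SE 0.06, adjusted p = 0.0158).

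Of 17 measured genes for dolichol and sugar nucleotides 2 rose and 3 fell (median -0.010), also whenever 1 sample was left out. Over all tested genes 20.8% rose and 14.9% fell. Gnpnat, an acetyltransferase on the way to UDP-GlcNAc, rose by 0.65 (SE 0.08, adjusted p = 0.000166), and mmy, which makes UDP-GlcNAc itself, fell by 0.24 (SE 0.06, adjusted p = 0.0138). UGP, which makes UDP-glucose, fell by 0.45 (SE 0.12, adjusted p = 0.0161). Dolk, dolichol kinase, fell by 0.28 (SE 0.06, adjusted p = 0.00646). Gmppa, a GDP-mannose pyrophosphorylase subunit, rose by 0.35 (SE 0.09, adjusted p = 0.0112).

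Of 6 measured genes of the transamidase partner and anchor remodelling, PGAP2 rose (0.32, SE 0.08, adjusted p = 0.0105) and GAA1, the partner of PIG-K, changed by 0.09 (adjusted p = 0.347). In the list of GPI-anchored proteins 3 of 9 fell and 1 rose (median -0.10). The falls were Mmp2, a matrix metalloproteinase (-0.48, adjusted p = 0.0172), Lac, an adhesion protein (-0.27, adjusted p = 0.0366), and Fas1 (-0.31, adjusted p = 0.0404). The rise was Nrx-IV (0.23, adjusted p = 0.0418), a transmembrane protein that does not belong to this class. When 1 sample was left out 0 to 3 of this list fell. Of 3 measured users of dolichol phosphate mannose outside both branches, CG6659 (0.21, adjusted p = 0.00722) and Tmtc4 (0.42, adjusted p = 0.0169) rose.

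Of 17 measured genes of the unfolded protein response and ER-associated degradation 3 rose and 1 fell (median -0.039). Among all tested genes 20.8% rose and 14.9% fell. Herp (0.34, adjusted p = 0.0167), Der-2 (0.23, adjusted p = 0.0347) and the kinase PEK (0.18, adjusted p = 0.0472) rose, and the chaperone Gp93 fell by 0.19 (adjusted p = 0.019). With arrays set to a common median Der-2 and PEK no longer passed. The list had 0 to 3 rises when 1 sample was left out. Hsc70-3, the fly BiP, changed by -0.09 (adjusted p = 0.143). Of 10 measured genes in the translocon list none rose and 2 fell, Sec61gamma (-0.31, SE 0.04, adjusted p = 0.000497) and Sec61beta (-0.14, SE 0.05, adjusted p = 0.0442), subunits of the channel. The list also held Trap1, a mitochondrial chaperone that does not belong to it (0.01).

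**Figure D5:**
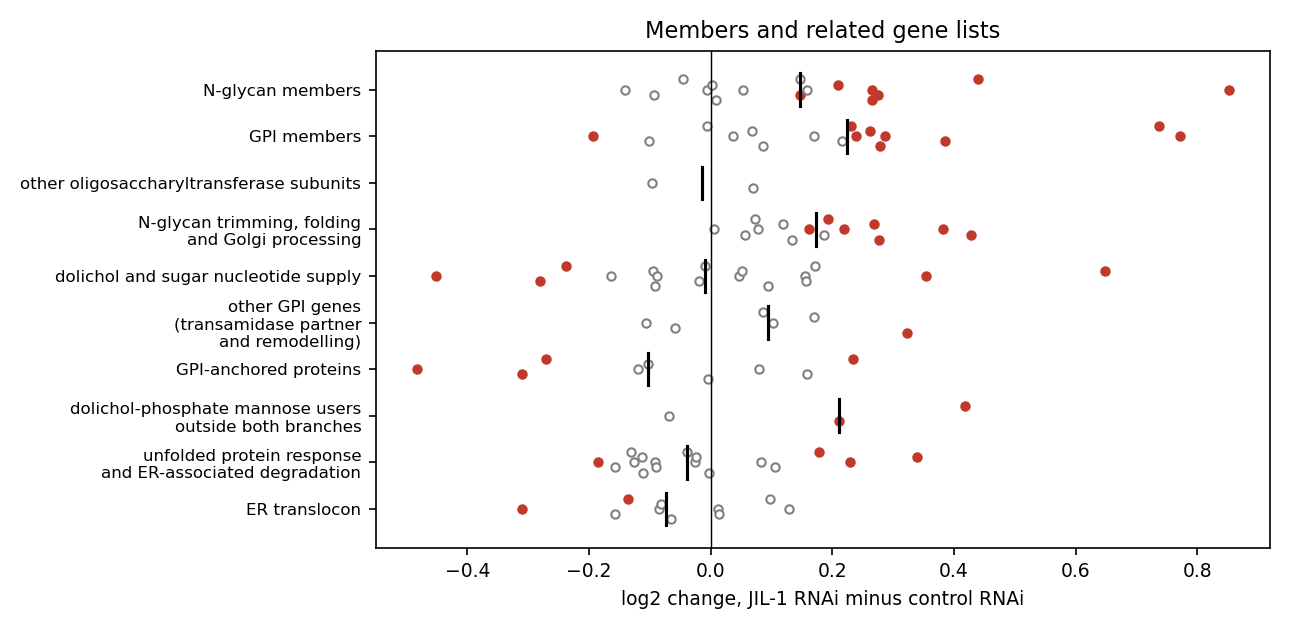
Log2 change (x axis, JIL-1 RNAi minus control RNAi) of each tested gene in both branches and in 8 related lists, filled in red where it passed the threshold, with a bar at each median. The medians are 0.15 for N-glycan members, 0.22 for GPI members and 0.17 for the trimming and Golgi list, against -0.10 for GPI-anchored proteins and -0.074 for the translocon list.

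The gene gny, the fly Alg6, stayed below the level of 4 in all samples, where values have no dependable order. Its probe set gave 2.59 and 2.57 with the 5prime dsRNA, against 2.48, 2.48 and 2.41 with GST dsRNA. It gave 3.28, 3.24 and 3.47 with the 3prime dsRNA, against 2.57 and 2.57 with EGFP dsRNA, and without the filter its adjusted p was 0.0811.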

How the data were processed

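Total RNA of the 10 samples was hybridised to single-colour Affymetrix arrays. The authors deposited 1 log2 value per probe set, made with GCRMA per the submitters' processing notes, which corrects background by probe sequence and normalizes between arrays. The sources used here do not give its version or say if both batches were normalized at once. RNA came from either of 2 Qiagen methods, per the labels' protocols, which do not tie a method to a sample. Values ran from 2.20 to 15.65, and 50.5% to 51.8% of each array's probe sets were at most 0.01 above the minimum, so changes of dim genes are compressed.

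Genes were named from the platform annotation and Release 6 gene IDs (13544 of 13647 single-gene probe sets matched). In R 4.3.3, limma 3.58.1 modelled each row on group plus batch, two-sided, and on 4 means for changes within batches. The fit was tested on simulated data. It called 12 of 50 planted changes of 0.25, 37 of 50 of 0.5 and 48 of 50 of 1, with 13 false calls. Far fewer genes were changed there than passed in the real data, so these shares need not hold here. A member that did not pass need not be unchanged. Named are all members and, of each other list, by smallest p, at most 4 that passed, or 2 if none did; further genes (neighbours, UGP, GAA1, Hsc70-3, Trap1) were chosen after their values were seen. The members and lists were chosen with earlier results of these data known. The alternatives tried are given in the closing section.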

Additional observations from a re-analysis of the deposited data

Results flagged for a closer look

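The lowest PIG-G value among the 5 JIL-1 RNAi samples, 9.25 in replicate 3 (3prime dsRNA), stood apart from the nearest of the others, 9.37. The gap was 0.742 of the group's range, above the critical value of 0.71 for a single outlying sample. It was the only one of 68 groups of 5 values examined (33 members and JIL-1 in JIL-1 RNAi and control RNAi). Chance flags about 1 in 20 such groups if all 5 values share a distribution. Each group held both batches, and a gap between batches widens the range. Few flags therefore do not show that outlying samples are absent.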

How the results depend on the processing

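Alg13 stayed past the threshold under every alternative tried, and 11 of the 17 called members did when any 1 sample was left out. Leaving out 1 sample gave 14 to 17 rises and 0 to 2 falls among the members, 5 to 7 rises and 0 to 1 falls in the N-glycan branch, 7 to 10 rises and 0 to 1 falls in the GPI branch, and 928 to 1349 rises and 806 to 1014 falls over all tested genes; 928 was without JIL-1 RNAi replicate 2. The N-glycan minus GPI median then ran from -0.119 (without control replicate 5) to -0.061. Without a batch term 3 members rose (N-glycan 1, GPI 2) and 0 fell, with 212 rises and 289 falls over all tested genes. In that fit the N-glycan median was 0.029, the difference of medians -0.148, JIL-1 -1.26 (adjusted p = 0.153) and Alg14 0.38 (adjusted p = 0.159). With the replicate number as a block 6 members rose (N-glycan 1, GPI 5) and 0 fell, with 606 rises and 597 falls over all tested genes, and Alg14 was 0.40 (adjusted p = 0.0723). Deviations of same-numbered samples from the mean of their batch and group correlated at r from -0.295 to 0.24. Those means rest on 2 or 3 samples, and replicate 3 is of batch B in JIL-1 RNAi but of batch A in control RNAi. Whether same-numbered samples were paired therefore cannot be decided from these values. At a fold of at least 1.5, 3 members rose (N-glycan 1, GPI 2) and 0 fell, against 130 and 341 over all tested genes. Without the filter the fit held 17105 rows, of which 740 rose and 712 fell. There 12 members rose and 0 fell, and Alg14 was 0.44 (adjusted p = 0.0628). PIG-F also lost its call with a variance trend and robust fit or batch as a random block (0 falls). With a common median, quantile normalization, array weights or an adjusted p under 0.1, 2 members fell, 1 of them Mgat2 in the N-glycan branch. Within batch B alone Alg14 was 0.21 (adjusted p = 0.233).

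Covariates were added after the data were seen. With the GAPDH signal 1 member rose (N-glycan 1, GPI 0) and 0 fell, against 93 and 100 over all tested genes, the median of which shifted to 0.147. The N-glycan median was 0.079, the difference of medians -0.186 and Alg14 1.00 (adjusted p = 0.142). Signs turned there for Alg11 (-0.0417), wol (-0.0310), ergic53 (-0.0330), Der-2 (-0.0358), Nrx-IV (-0.121), PIG-F (0.143) and Sec61beta (0.0182). With the Act5C signal 11 members rose (N-glycan 4) and 0 fell, against 929 rises over all tested genes. The cause of these shifts was not tested.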
